A study of Mus musculus with 3 samples.

Results

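Nitric oxide and arginine metabolism was examined through 8 mouse genes: Nos2, Arg1, Arg2, Ass1, Asl, Slc7a2, Gch1 and Odc1. They were chosen by symbol as a named set. No measured value set the choice, but earlier results of these data were known when it was made. All 8 were found among the 55536 mouse genes of the gene tables. Polyadenylated RNA was sequenced from macrophages grown out of C57BL/6J bone marrow, C57BL/6J being an inbred laboratory strain. The cells received 100 ng/ml lipid A for 12 hours, spent 12 hours without it after washing, and were then exposed once more, to 100 ng/ml for 180 minutes. Lipid A anchors lipopolysaccharide in the bacterial outer membrane and is sensed by Toll-like receptor 4; other label fields call the agent lipoprotein A, and this conflict is left as it stands. The labels give 1 group with replicates 1, 2 and 3, no genetic change, and the same donor record throughout, so every p-value measures only the spread between these libraries, which may be technical. Unexposed or once-exposed cells were not analysed here, so levels, the order of the genes and the spread between replicates are reported, and no value shows a response to lipid A.

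Macrophages use the amino acid arginine along competing routes. Nitric oxide synthase turns it into nitric oxide, a toxic gas for microbes, and citrulline, while arginase turns it into ornithine, the source of polyamines and proline, and urea. The inducible synthase Nos2 is known for its response to bacterial products and interferons and needs the cofactor tetrahydrobiopterin, whereas arginase 1 is known in mouse macrophages as a marker of the programme driven by interleukin 4.

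The gene tables held 23377091, 36824106 and 37685712 expected counts of mouse genes in replicates 1, 2 and 3. Levels are TPM, transcript abundances scaled within a library and corrected for transcript length, so that genes can be compared; means are given ± SD over n = 3 replicates. All 8 macrophage markers, among them Lyz2, Adgre1 and Csf1r, reached 1 TPM in every replicate, with a summed level of 16022 to 18414 TPM. At that level were 1 of 6 dendritic cell, 0 of 6 B and T cell, 0 of 6 fibroblast and stromal, and 0 of 6 mast cell, basophil and eosinophil markers. Neutrophil markers reached it in 2 of 8 cases and endothelial markers in 3 of 6; both lists differed between replicates and are described beside the replicate pattern. In bulk RNA, fewer cells of a type and less RNA per cell cannot be told apart.

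Of the 8 genes, 6 were at 1 TPM or more in every replicate: Nos2, Odc1, Gch1, Ass1, Asl and Slc7a2. Among all 22028 protein-coding genes, 44.3% met the same rule. Arg2 crossed the line, above it in replicates 1 and 3 and below it in replicate 2, and Arg1 stayed under it throughout. The plot of levels by replicate shows a cluster of 5 genes between about 29 and 69 TPM on average, then Slc7a2, then a wide step down to the arginases.

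**Figure D1:**
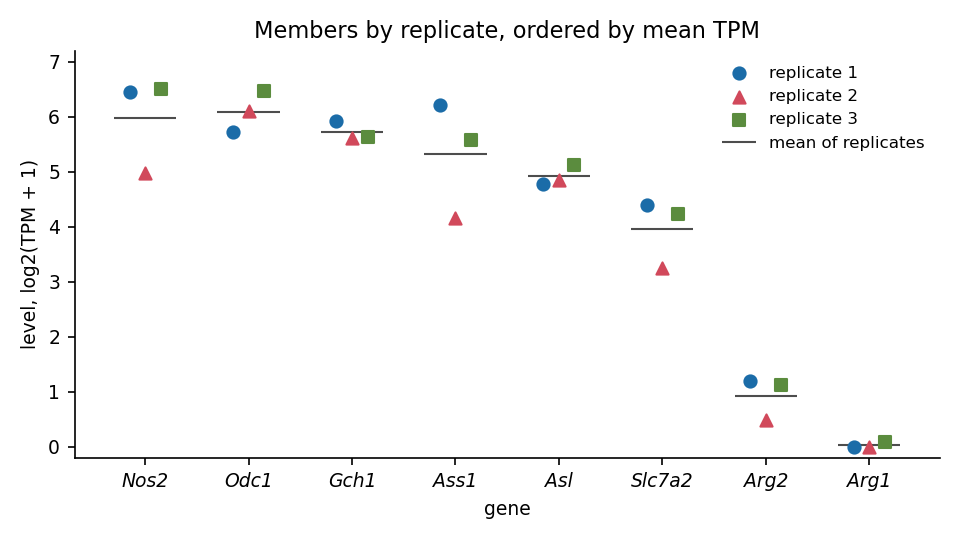
Level of each gene as log2(TPM + 1) in replicates 1 (circles), 2 (triangles) and 3 (squares), with a bar at the mean of the 3 log values and genes ordered by mean TPM. Nos2, Ass1, Slc7a2 and Arg2 have replicate 2 as their lowest point, and Arg1 lies at or next to 0.

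Nos2, the inducible nitric oxide synthase, had the highest mean of the 8 genes. It (ENSMUSG00000020826.8) lies on chromosome 11 of mm10 (GRCm38), at 78920787 to 78960254 on the plus strand. It was at 86.6, 30.7 and 90.3 TPM in replicates 1, 2 and 3, or 69.2 ± 33.4 TPM (SD, n = 3), from 5424, 3109 and 9320 expected counts. Replicates 1 and 3 were close together and replicate 2 was far below both. Its mean stood above 80.8% of the expressed protein-coding genes, those at 1 TPM or more in every replicate. The coding transcript Nos2-201 held 99.9% of its TPM.

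The other synthases were at the detection limit. Nos1, the neuronal enzyme, had 1 count in replicate 3 and none elsewhere, and Nos3, the endothelial enzyme, had 0, 1 and 2 counts. Summed over the replicates, 17853 Nos2 counts stood against 3 of Nos3, a count ratio of 5951 with an exact (Clopper-Pearson) 95% interval of 2036 to 28860. Against the single count of Nos1 the interval was 3204 to 705195. In the tables made from FASTQ files Nos1 had 3, 3 and 2 counts, against 6831, 3391 and 9977 of Nos2. The interval for Nos1 therefore depends on the source. These are ratios of counts, not corrected for length, and the intervals cover counting error only.

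Gch1, GTP cyclohydrolase 1, makes the first and rate-limiting step of tetrahydrobiopterin synthesis. It (ENSMUSG00000037580.10) lies on chromosome 14, at 47153895 to 47189413 on the minus strand. It was at 59.6, 48.1 and 48.9 TPM, or 52.2 ± 6.43 TPM (SD, n = 3), with replicate 1 a little above the other replicates. Its coefficient of variation of 12.3% was the smallest of the 7 genes with more than 2 counts, against 48.3% for Nos2, and the coding transcript Gch1-201 held 98.1% of its TPM. Gchfr, the feedback protein that restrains the enzyme, had 1 count in replicate 1 and 0 counts in replicates 2 and 3. A ratio within each replicate could therefore not be formed, and the summed counts were 8761 of Gch1 to 1 of Gchfr, with an exact 95% interval of the ratio of 1572 to 346080. Without replicate 1 Gchfr had no count, and the count of Gch1 was then at least 2119-fold higher by a floor of 3 counts over both libraries. The ratio was 5631 without replicate 2, 5535 without replicate 3 and 3258 in the tables made from FASTQ files, where Gchfr had 3 counts. These are ratios of counts, not corrected for length, and the transcript of Gchfr is the shorter. In TPM, a floor of 3 counts puts the limit for Gchfr at 0.315 in replicate 2 and 0.317 in replicate 3.

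The later enzymes of the cofactor were present at lower or similar levels. Pts, which makes the second step, was at 29.6, 46.8 and 46.5 TPM, and Spr, which makes the last, at 9.62, 9.91 and 11.0 TPM. Qdpr, which recycles the spent cofactor, was at 37.5, 46.0 and 52.5 TPM. Of the pair of pterin dehydratase genes, Pcbd2 was at 19.8, 30.2 and 23.3 TPM whereas Pcbd1 had a single count in replicate 1. Of the 8 genes listed for this cofactor, 6 reached 1 TPM in every replicate.

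Slc7a2 encodes a carrier that brings arginine and other cationic amino acids into the cell. It (ENSMUSG00000031596.15) lies on chromosome 8, at 40862396 to 40922308 on the plus strand. Alternative splicing gives it a low-affinity form, CAT-2A, and a high-affinity form, CAT-2B, the latter known from activated macrophages. The forms differ by which of a pair of neighbouring coding exons is used, and the sequences of these exons are shown. The annotated transcripts also differ in their first exons and in their last. The last exon has 5971 bases in Slc7a2-201, 1719 in Slc7a2-202, 5733 in Slc7a2-203 and 1389 in Slc7a2-204. Reads over those parts also bear on how the gene's level is divided. The sequences were read from the GENCODE M21 transcripts on GRCm38, plus strand. The 140-base exon lies at chr8:40908056-40908195 and is exon 7 of Slc7a2-202 and Slc7a2-203; the 137-base exon lies at chr8:40908398-40908534 and is exon 7 of Slc7a2-201 and exon 6 of Slc7a2-204. Capitals mark the bases that differ in an alignment of the exons, 56 in the longer and 53 in the shorter.
Slc7a2 140-base exon: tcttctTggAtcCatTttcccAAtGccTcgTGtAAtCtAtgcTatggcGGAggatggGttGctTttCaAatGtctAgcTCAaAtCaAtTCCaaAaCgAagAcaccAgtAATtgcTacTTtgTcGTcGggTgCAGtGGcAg
Slc7a2 137-base exon: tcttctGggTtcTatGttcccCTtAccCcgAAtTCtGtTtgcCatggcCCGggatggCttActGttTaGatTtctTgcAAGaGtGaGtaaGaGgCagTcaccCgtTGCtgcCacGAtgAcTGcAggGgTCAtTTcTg
The exons match at 60% of 140 aligned bases and at 54.3% of 46 aligned residues. The 46 residues of the longer exon are 82.6% identical to the same stretch of Slc7a1, the general high-affinity carrier CAT-1, and the 45 residues of the shorter exon are 62.2% identical to it. The annotated proteins are 658 residues long for Slc7a2-202 and Slc7a2-203, 657 for Slc7a2-201 and 674 for Slc7a2-204, whose coding part starts further upstream.

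**Figure D2:**
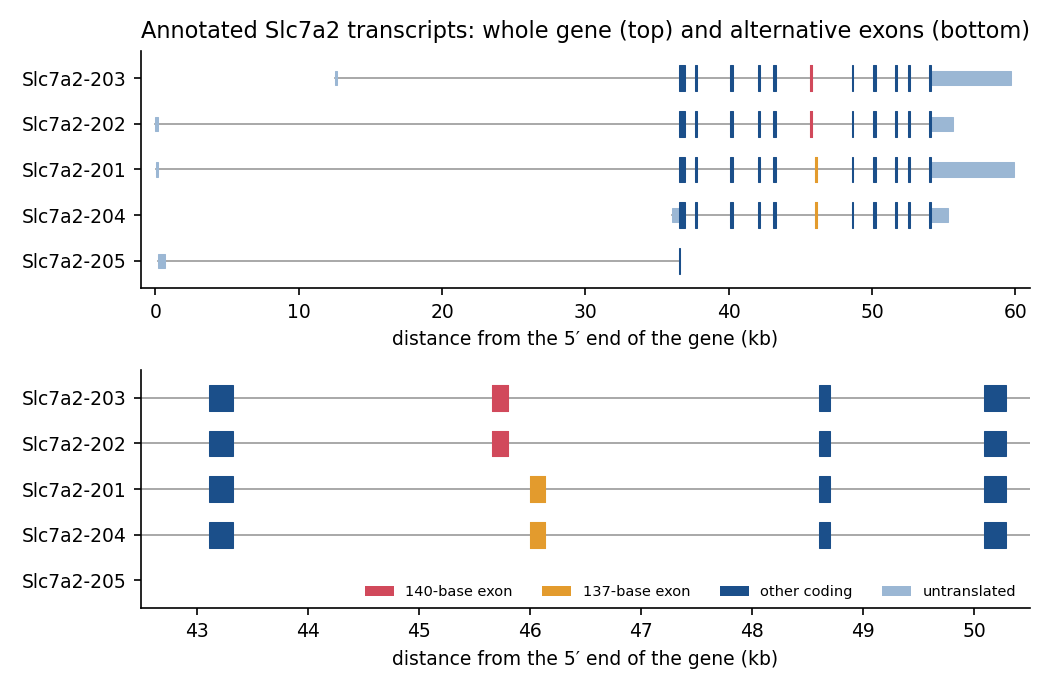
Annotated Slc7a2 transcripts drawn to scale against the distance from the 5′ end of the gene in kb, the whole gene above and the stretch with the alternative exons below. Slc7a2-202 and Slc7a2-203 carry the 140-base exon, Slc7a2-201 and Slc7a2-204 the 137-base exon, and Slc7a2-203 starts 12.6 kb downstream of Slc7a2-202.

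Slc7a2 was at 20.2, 8.47 and 17.9 TPM, or 15.5 ± 6.20 TPM (SD, n = 3), with replicate 2 below both others. By the tables made from a transcriptome alignment, transcripts with the 140-base exon, the one of the high-affinity form, held 67.0%, 78.5% and 73.0% of the gene's TPM, or 72.8% ± 5.76 (SD, n = 3). They held 90.7%, 100% and 96.2% in the tables made from the same libraries' FASTQ files, or 95.6% ± 4.69 (SD, n = 3). Both sources put most of the gene in this form in all 3 replicates, and the share itself depended on the source. The low-affinity exon held 25.3% ± 4.95 by alignment and 3.00% ± 4.30 by FASTQ; in replicate 2 it held 21.5% by alignment, from 360 expected counts, and 0% by FASTQ. These shares are of whole transcripts, not of reads over the exon alone. The cause of the gap between the tables was not tested.

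The start of the transcript was assigned alike by both sources. Slc7a2-203, which begins at its own first exon 12.6 kb into the gene, held 45.5%, 65.1% and 56.3% of the TPM by alignment and 45.2%, 64.0% and 50.6% by FASTQ. Slc7a2-201 and Slc7a2-202, which begin at the 5′ end of the gene, held 52.4%, 34.9% and 40.1% by alignment and 52.3%, 36.0% and 45.7% by FASTQ. In both, the internal start had its largest share in replicate 2, the library in which the gene was lowest. In that library Slc7a2-203 was at 5.51 TPM, against 9.17 and 10.1 TPM in replicates 1 and 3, and the transcripts from the 5′ end summed to 2.96 TPM, against 10.6 and 7.17 TPM.

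**Figure D3:**
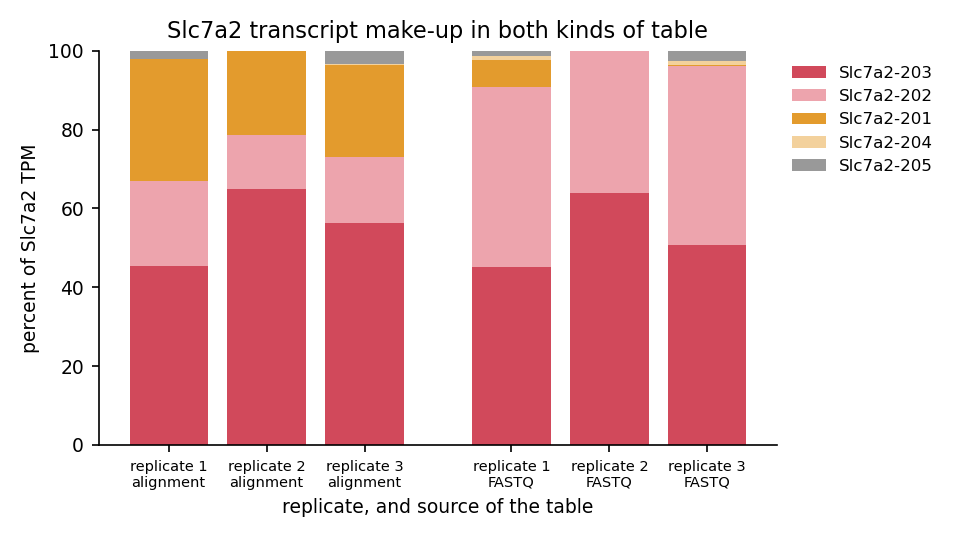
Percent of Slc7a2 TPM in each annotated transcript, as stacked bars for replicates 1, 2 and 3 from the alignment tables (left) and from the FASTQ tables (right). The red and pink parts, Slc7a2-203 and Slc7a2-202, carry the 140-base exon and sum to 67.0% to 78.5% on the left and 90.7% to 100% on the right.

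Slc7a1 was close behind Slc7a2, at 15.4, 7.66 and 13.2 TPM. The log2 ratio of Slc7a2 over Slc7a1 was 0.39, 0.15 and 0.44, or 0.32 ± 0.16 (SD, n = 3), above 0 in 3 of 3 replicates; with 3 replicates an exact two-sided sign-flip test cannot give a p below 0.25. Slc7a3, the third carrier of this kind, had 3, 3 and 1 counts. Slc7a7, which with the heavy chain Slc3a2 exports cationic amino acids in exchange for neutral ones, was at 45.4, 97.7 and 76.5 TPM, highest in replicate 2. Slc3a2, shared by several amino acid carriers, was at 531, 375 and 483 TPM. The mitochondrial ornithine carrier Slc25a15 was at 1.56, 1.83 and 2.38 TPM, and 7 of the 10 transport genes listed reached 1 TPM in every replicate.

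Ass1 and Asl return citrulline, the by-product of nitric oxide synthesis, to arginine. Ass1 (ENSMUSG00000076441.9), argininosuccinate synthase on chromosome 2 at 31470207 to 31520672, plus strand, was at 73.2, 16.8 and 46.9 TPM, or 45.6 ± 28.2 TPM (SD, n = 3). Its coefficient of variation of 61.8% was the largest of the 7 genes with more than 2 counts. Asl (ENSMUSG00000025533.15), argininosuccinate lyase on chromosome 5 at 130011258 to 130029247, minus strand, was at 26.4, 27.8 and 33.9 TPM, or 29.4 ± 3.99 TPM (SD, n = 3). These consecutive enzymes did not vary together: Ass1 was far lower in replicate 2 and Asl was nearly level. Their log2 ratio was 1.47, -0.73 and 0.47, so Ass1 was the higher of the pair in replicates 1 and 3 and the lower in replicate 2. The mean of 0.40 ± 1.10 (SD, n = 3) was smaller than its spread, and it was -0.13 without replicate 1.

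Ass1 shares 43.1% of its 31-base sequences with the processed pseudogene Gm5424, to which the tables gave 18.9, 7.46 and 19.9 counts against 1672, 618 and 1744 for Ass1. Its level is uncertain to the extent that the counting split reads between them. Of Asl's TPM, the coding transcript Asl-205 held 82.0% ± 4.66 by alignment and 55.2% ± 4.90 by FASTQ. Asl-204, annotated as a processed transcript, took 0%, 6.22% and 7.85% by alignment and 17.0%, 22.9% and 28.4% by FASTQ. How Asl was divided among its transcripts thus depended on the source. The gene's mean was close in both, at 30.8 ± 7.09 TPM by FASTQ. Its log2 of FASTQ over alignment TPM was -0.04, 0.001 and 0.20 in replicates 1, 2 and 3. Over expressed genes the median was -0.48, -0.19 and -0.03, so relative to these Asl stood higher by FASTQ. The log2 ratio of Ass1 over Asl was 0.07 there. The urea cycle genes Otc, Cps1 and Nags, which act in liver mitochondria, had 0 counts in all replicates, where a count of 0 allows up to 0.128, 0.0815 and 0.0796 CPM, the count scaled by library size.

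Arginases were scarce. Arg1 (ENSMUSG00000019987.9), the cytosolic arginase, on chromosome 10 at 24915221 to 24927484, minus strand, had 0, 0 and 2 counts, and replicate 3 alone gave a value, 0.06 TPM. A floor of 3 counts puts the limit for Arg1 at 0.306 TPM in replicate 1 and 0.193 TPM in replicate 2. Arg2 (ENSMUSG00000021125.6), the mitochondrial arginase, on chromosome 12 at 79130777 to 79156301, plus strand, was at 1.29, 0.40 and 1.17 TPM, or 0.953 ± 0.483 TPM (SD, n = 3), from 24, 12 and 35 counts. Summed counts of Arg2 to Arg1 were 71 to 2, a ratio of 35.5 with an exact 95% interval of 9.47 to 299. On the opposite strand Arg2 overlaps Vti1b, a vesicle fusion gene at 82.6, 87.3 and 73.4 TPM. Whether counting used strand is not given in the sources used here, so reads of the overlap cannot be assigned to Arg2 with certainty.

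Within each library, Nos2 stood far above Arg2, the enzyme that competes for its substrate. The log2 ratio of their TPM was 6.07, 6.26 and 6.27, or 6.20 ± 0.11 (SD, n = 3), which is 73.5-fold. Both genes were lowest in replicate 2 and their ratio varied little between the libraries. Arg2 rests on 24, 12 and 35 counts, and the SD does not include their counting error. The small spread of the ratio therefore does not show that the genes keep step. Markers of the interleukin 4 programme were uneven: Retnla had 0 counts, Chil3 was at 9.91, 9.28 and 6.81 TPM, the mannose receptor Mrc1 at 19.3, 30.96 and 33.5 TPM, and 4 of 7 such genes reached 1 TPM in every replicate.

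Odc1, ornithine decarboxylase, makes putrescine, the first polyamine, from ornithine. It (ENSMUSG00000011179.8) lies on chromosome 12, at 17544794 to 17551505 on the plus strand. It was at 51.7, 67.7 and 87.3 TPM, or 68.9 ± 17.8 TPM (SD, n = 3), all but level with Nos2 in the mean, and was lowest in replicate 1 where Gch1 and Ass1 were highest. Of the 31-base sequences of Odc1, 31.3% also occur in other genes. The 5 genes that shared most were processed pseudogenes, which received at most 14.7 counts each over all replicates. Counts of any further genes that share sequence with Odc1 were not looked up. The coding transcript Odc1-201 held 87.6% ± 3.62 of its TPM by alignment and 93.9% ± 0.437 by FASTQ. The transcript annotated as a target of nonsense-mediated decay, Odc1-205, held 7.12%, 11.5% and 14.4% by alignment and 4.09%, 5.20% and 5.83% by FASTQ.

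Control of Odc1 runs largely through its protein, by antizymes that send it to the proteasome and antizyme inhibitors that protect it. Antizyme 1, Oaz1, was at 301, 282 and 291 TPM, and the log2 ratio of Odc1 over Oaz1 was -2.54, -2.06 and -1.74, or -2.11 ± 0.41 (SD, n = 3). Oaz1 was thus 4.32-fold higher than Odc1 per length, in 3 of 3 replicates. The antizyme inhibitor Azin1 was at 123, 130 and 156 TPM, and Oaz2 at 16.6, 19.1 and 17.8 TPM. Arg2, which would supply ornithine inside mitochondria, stood below Odc1 by a log2 ratio of -5.32, -7.40 and -6.22, or -6.32 ± 1.04 (SD, n = 3).

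By mean TPM the order was Nos2, Odc1, Gch1, Ass1, Asl, Slc7a2, Arg2 and Arg1. The first 5 genes could not be fully ordered: the ranges of each pair of neighbours overlapped, and each pair held its order in 2 of 3 replicates. Beyond neighbours, Odc1 and Gch1 were each above Asl in 3 of 3 replicates with no overlap. From Asl downward the order was firmer. Asl was above Slc7a2, Slc7a2 above Arg2 and Arg2 above Arg1 in 3 of 3 replicates with no overlap, although no such comparison can pass a test with 3 replicates.

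The replicates did not move as one across the 8 genes. On the scale of CPM, scaled by the trimmed mean of M-values (TMM) and not corrected for length, Nos2 was at 237, 82.3 and 250 CPM, Ass1 at 72.9, 16.4 and 46.7 CPM, Slc7a2 at 90.5, 40.0 and 82.3 CPM and Arg2 at 1.05, 0.318 and 0.937 CPM. In all 4, replicate 2 was lower than each other replicate by at least 1 log2 unit, the smaller gap being 1.52 for Nos2, 1.51 for Ass1, 1.40 for Arg2 and 1.04 for Slc7a2. Gch1, Asl and Odc1 did not share this: their highest and lowest replicates differed 1.27-fold, 1.26-fold and 1.68-fold in CPM. So 4 of the 7 genes that passed the filter on low counts were at least 2-fold lower in replicate 2 than in each other replicate, against 1.42% of the 11992 genes tested, 170 genes. Arg1 did not pass the filter, and Arg2 rested on only 24, 12 and 35 counts. The 2-fold rule was set after these values were seen, so the counts are a description. Of the 7, 3 met it by CPM without TMM, 4 by TPM and 3 by the FASTQ source. The share over all genes is not given for those scales, and the 1.42% does not apply to them. Of the other 41 pathway genes that passed, 1 met it, the cyclic GMP-dependent kinase gene Prkg1.

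**Figure D4:**
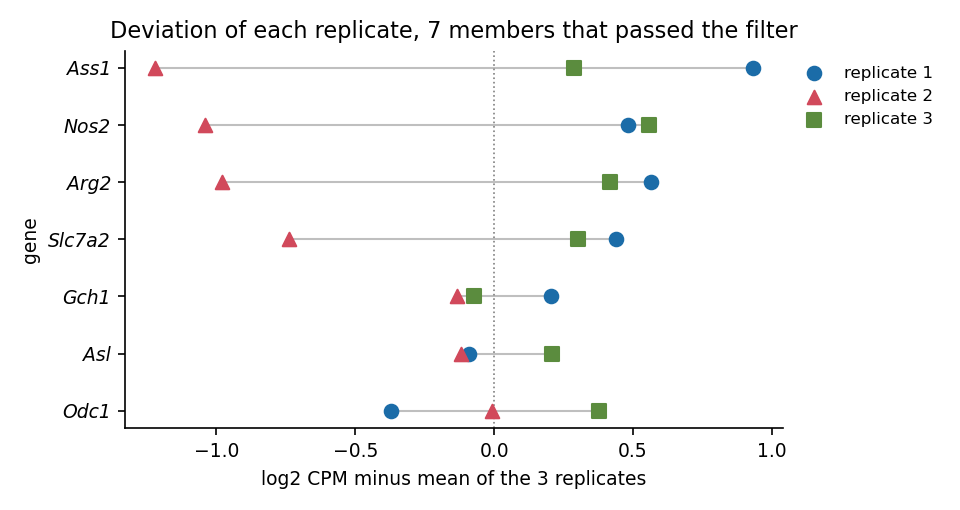
Deviation of each replicate from the mean of the 3 replicates, in log2 CPM, for the 7 genes that passed the filter on low counts. Replicate 2 (triangles) lies at -1.22 for Ass1, -1.04 for Nos2, -0.98 for Arg2 and -0.74 for Slc7a2, and between -0.13 and -0.01 for Gch1, Asl and Odc1.

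Markers of other cells also set replicate 2 apart. The summed level of the 8 neutrophil markers was 12.1, 100 and 10.8 TPM in replicates 1, 2 and 3. It came chiefly from the calprotectin genes S100a8, at 6.84, 39.4 and 5.36 TPM, and S100a9, at 4.20, 58.0 and 5.10 TPM, which myeloid cells other than neutrophils can also express. Of the rest of the list, Ltf had 3, 53 and 0 counts, Mpo 1, 10 and 0, Camp 6, 12 and 3, and Elane 0, 0 and 2. The granulocyte surface gene Ly6g and Retnlg had 0 counts in all replicates. The 6 endothelial markers summed to 32.9, 11.8 and 29.3 TPM, with Kdr at 22.0, 6.58 and 18.7 TPM and Vwf at 8.64, 1.93 and 8.10 TPM. Other genes of this list went the other way: Cdh5 was at 0.39, 0.88 and 0.73 TPM and Pecam1 at 1.90, 2.45 and 1.73 TPM. Emcn had 0, 0 and 1 counts and Tek had 0 counts. The macrophage list summed to 16022, 16634 and 18414 TPM. The part of any of these in the levels of Nos2, Ass1, Slc7a2 and Arg2 was not tested.

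None of the 7 genes passed the threshold of a test for excess variance between replicates. An edgeR quasi-likelihood fit with an intercept only, testing one-sided whether a gene's dispersion exceeded that of genes of like abundance, called 0 of 11992 genes, or 0%, at a Benjamini-Hochberg adjusted p under 0.05, with 627 at an unadjusted p under 0.05. The biological coefficient of variation was 0.351 for Nos2 against 0.157 on the trend, 0.421 for Ass1 against 0.164 and 0.275 for Slc7a2 against 0.164. In that edgeR fit the unadjusted p was 0.00421 for Nos2, 0.00206 for Ass1 and 0.0144 for Slc7a2, and the Benjamini-Hochberg adjusted p was 0.818, 0.818 and 0.841. For Odc1, Arg2, Gch1 and Asl the adjusted p in the edgeR fit lay between 0.950 and 0.995. The prior of this test, the spread assumed for genes of like abundance, is estimated from these same genes. It had 4.14 degrees of freedom here and 14.4 with no filter on low counts. Neither the lack of calls nor the 627 genes at an unadjusted p under 0.05 therefore shows how much the genes varied.

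The call for Nos2 and Ass1 turned on the processing. With no filter on low counts edgeR called 143 of 20285 genes, or 0.705%, and among them Nos2, with a Benjamini-Hochberg adjusted p of 0.0186, and Ass1, with 0.00668. DESeq2, which marks genes whose dispersion lies far above its fitted trend, marked 53 of 11992 genes, or 0.442%, and again Nos2 and Ass1 of these 7 genes. Without replicate 2 the edgeR fit gave an unadjusted p of 0.774 for Nos2 and 0.613 for Slc7a2, 0.0480 for Ass1 and 0.0263 for Odc1, with no gene past the adjusted threshold and 670 at an unadjusted p under 0.05.

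The genes whose replicate pattern was most like that of Nos2 were taken as the 5 nearest of 10023 protein-coding genes that passed the filter on low counts and had a mean of at least 1 TPM, by Euclidean distance between log2 CPM minus its mean over the 3 libraries. They were B3gnt5, a glycosyltransferase gene, at 1.71, 0.61 and 1.84 TPM with a distance of 0.057, and Chst11, a chondroitin sulfotransferase gene, at 5.16, 1.66 and 5.11 TPM with 0.089. Next came Tnfsf4, the gene of the costimulatory OX40 ligand, at 3.33, 1.06 and 3.26 TPM with 0.089, the NKG2D ligand gene Raet1e at 2.68, 0.95 and 3.25 TPM with 0.13, and Rcl1, a gene of ribosomal RNA processing, at 15.5, 5.69 and 15 TPM with 0.13. Of the 8 genes studied, Slc7a2 ranked 69th with a distance of 0.40 and Ass1 140th with 0.55. Gch1, Asl and Odc1 were at 1.14, 1.14 and 1.35 and ranked 2063rd, 2043rd and 6105th. The likeness is over 3 libraries of 1 group, and says nothing of a condition.

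Across the wider pathway, 69 genes in 8 lists by role were looked up, 68 were matched by symbol, and 42 of these reached 1 TPM in every replicate, or 61.8%. Leaving out the 8 genes above, 36 of 60 did. All 3 hypusination genes did, as did 6 of 8 tetrahydrobiopterin genes, 6 of 8 matched genes of proline, glutamate and creatine, and 11 of 15 polyamine genes; the emptiest lists were the targets and clearance of nitric oxide, with 2 of 8, and arginine synthesis with the urea cycle, with 2 of 7.

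Beside Nos2, the partners of nitric oxide synthase were mixed. Dynll1, a dynein light chain that binds neuronal synthase, was at 184, 189 and 156 TPM, and Nosip, named for its interaction with the endothelial synthase, at 40.5, 43.2 and 43.0 TPM. Nostrin, a trafficking protein of that enzyme, was at 16.6, 12.1 and 18.5 TPM. Of the enzymes that degrade methylarginines, which inhibit the synthases, Ddah2 was at 1.57, 1.12 and 1.05 TPM and Ddah1 had 0, 2 and 0 counts.

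The classical receptor of nitric oxide, soluble guanylate cyclase, was at or near the detection limit. Gucy1a1 had 0, 7 and 0 counts, Gucy1b1 had 0, 1 and 1, and Gucy1a2 and the kinase gene Prkg2 had none. In the FASTQ tables Prkg2 had 14, 22 and 9 counts and Gucy1a2 had 3, 4 and 0. Their absence by alignment thus depended on the source. Prkg1 was at 0.62, 0.13 and 0.50 TPM. Clearance genes were present, with Adh5, which reduces S-nitrosoglutathione, at 45.7, 55.4 and 55.0 TPM, and Cyb5r3, a cytochrome b5 reductase, at 71.6, 80.0 and 81.4 TPM.

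Downstream of Odc1, both synthesis and breakdown of polyamines were transcribed. Amd1, which makes the aminopropyl donor, was at 29.6, 39.7 and 32.9 TPM, spermidine synthase Srm at 15.2, 6.34 and 7.57 TPM and spermine synthase Sms at 28.7, 22.8 and 21.2 TPM. Sat1, the acetyltransferase that opens polyamine breakdown, was the highest gene of the list at 516, 613 and 511 TPM. The oxidases Smox and Paox were steady, at 25.9, 26.2 and 26.7 TPM and at 17.9, 17.7 and 18.9 TPM, and Atp13a2, which exports polyamines from lysosomes, was at 209, 203 and 219 TPM. Agmat, which would make putrescine from agmatine, had 0 counts. Spermidine also serves to make hypusine on the translation factor Eif5a, which was at 375, 446 and 482 TPM, with the enzymes Dhps at 35, 31 and 37.2 TPM and Dohh at 20.1, 21.5 and 17.0 TPM.

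Ornithine can also pass to glutamate and proline through Oat, which was at 42.6, 33.3 and 47.7 TPM. Aldh18a1, which makes the proline precursor from glutamate, was at 7.18, 4.23 and 5.88 TPM, and the reductase gene Pycr1 at 0.89, 0.11 and 0.25 TPM. Creatine synthesis, another use of arginine, was represented by Gatm at 19.2, 35.4 and 24.8 TPM, highest in replicate 2, and Gamt at 6.21, 6.59 and 8.33 TPM.

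**Figure D5:**
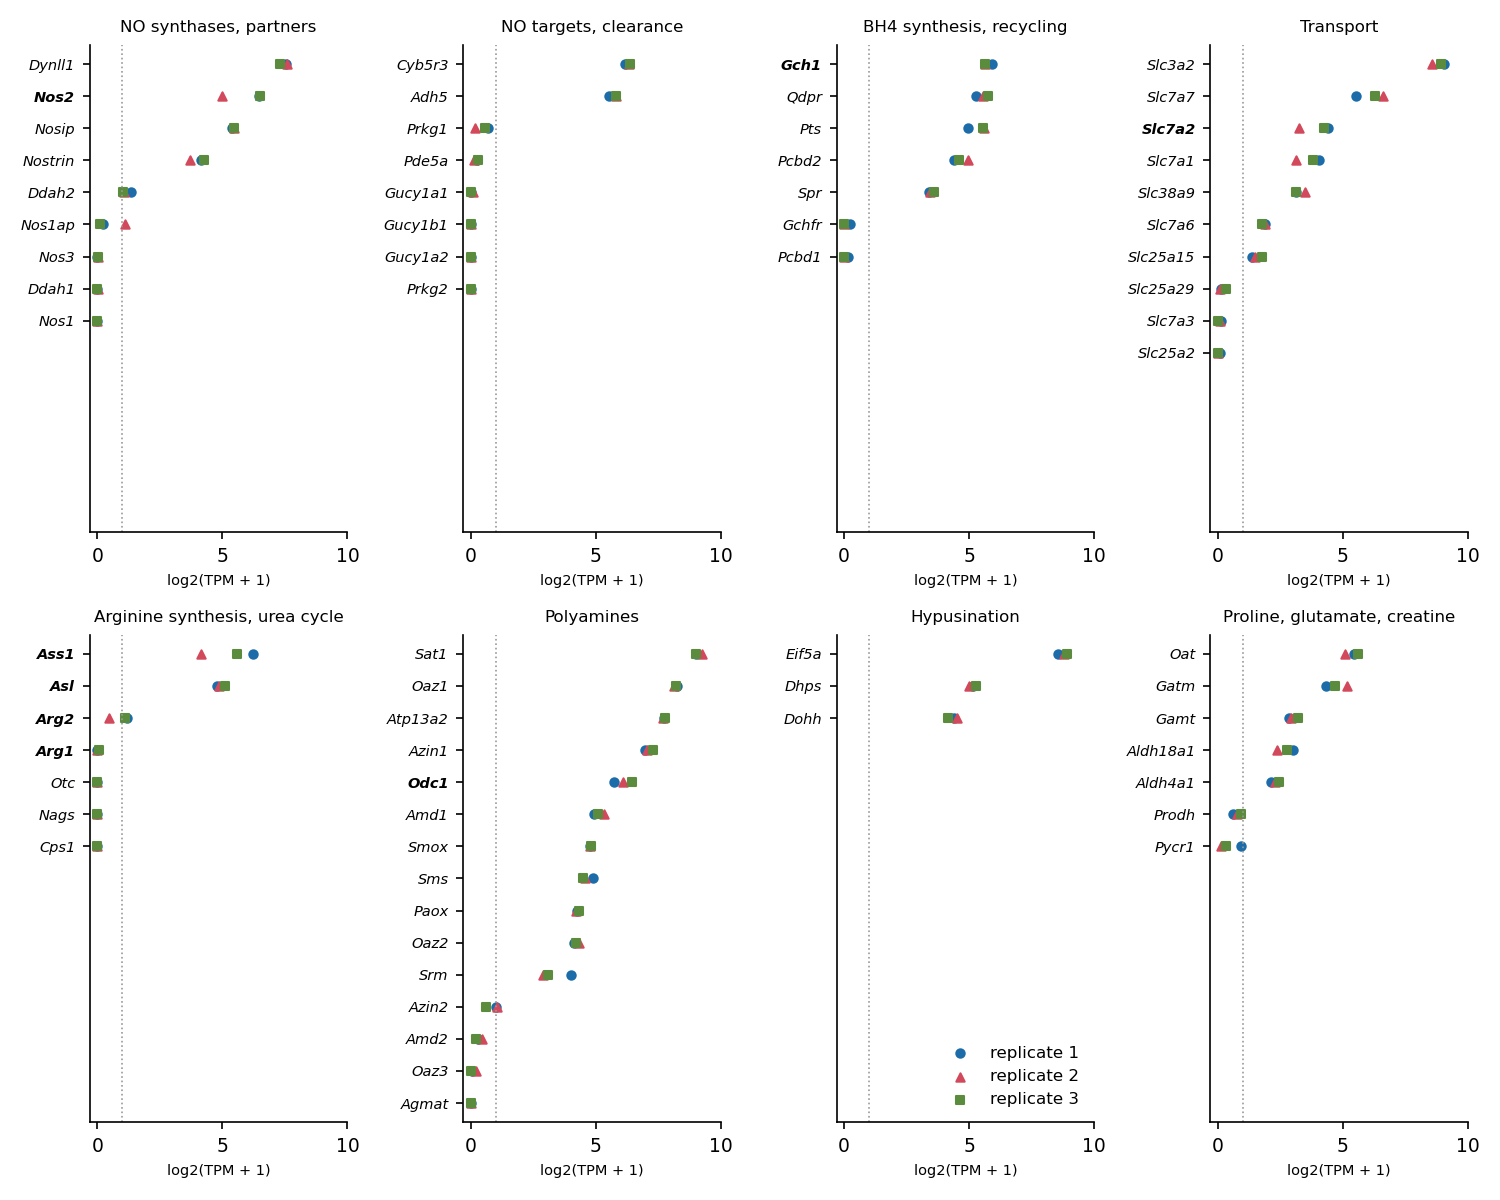
Level of 66 of the 68 matched pathway genes as log2(TPM + 1) in replicates 1, 2 and 3, 1 panel per role list, with the 8 genes studied in bold and a dotted line at 1 TPM. Polyamine and hypusination genes lie mostly right of the line, and the targets of nitric oxide and the urea cycle genes mostly left of it.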

How the data were processed

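Polyadenylated RNA was measured in 3 libraries with a starting quantity of 1 µg and sizes of 250 to 400, per the labels. The authors deposited expected counts and TPM per gene and transcript from a transcriptome alignment, and estimated counts and TPM per transcript from FASTQ files, per the file headers. Each transcript's percent of its gene's TPM, also deposited, was recomputed here from TPM. The build is mm10 with GENCODE M21, per the labels; the sources used here do not name the aligner or the counting program.

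Entries that name no gene, of which the phage phiX had counts (0.107% to 0.178%), were left out. Genes were matched through the 55450 entries with a symbol in GENCODE M21; Pycr3 had no match. Of the role lists, 2 genes enter the counts but are not reported here by name. Totals of 23377091 to 37685712 counts put a floor of 3 counts at 0.0796 to 0.128 CPM. Floors and intervals cover no error other than counting.

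Expected counts were rounded for edgeR 4.0.16 in R 4.3.3 (filterByExpr, TMM factors 0.982, 1.03 and 0.992, an intercept-only quasi-likelihood fit with a one-sided F test, Benjamini-Hochberg at 0.05, log2 CPM with a prior count of 2). The test was run first on simulated counts in which every gene lay on the dispersion trend. These data spread around that trend, so the simulation does not say how often the test would find a gene here. DESeq2 1.42.0 gave another scaling and dispersion outliers. Python 3.11.15 with numpy 2.4.6, pandas 2.3.3, scipy 1.17.1, Biopython 1.88 and matplotlib 3.10.9 did the rest. Sequence shared between genes was measured over 31-base stretches of GENCODE M21 transcripts.

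The 8 genes, the lists by role, the markers and the tests were chosen with earlier results of these data known. Named genes are the 8, any gene of the role lists, and the 5 nearest to Nos2 among filtered protein-coding genes with a mean of at least 1 TPM; cell type markers, and genes that overlap one of the 8 or share sequence with it, are named beside the values they touch. The planned ratio of Gch1 over Gchfr was replaced by summed counts because Gchfr was at 0 in replicates 2 and 3.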

Additional observations from a re-analysis of the deposited data

How the results depend on the processing

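Of the alternatives to the main results, 58 kept the value within its limit and 10 moved it. With a replicate left out, mean ratios and shares judged by their SD could not leave that limit. Those rows are no check. The direction changed for the log2 ratio of Ass1 over Asl, which ran from -0.13 to 0.97 with a replicate left out and whose main value of 0.40 was no call. Calls of excess variance rose from 0 genes to 143 with no filter on low counts and to 53 by DESeq2's dispersion outliers, and from 0 to 2 and 2 of the genes studied; with DESeq2's size factors, a minimum of 10 counts, the FASTQ tables or a replicate left out the edgeR count stayed at 0. On expected counts, not divided by length, the log2 ratio of Nos2 over Arg2 was 7.96 and that of Odc1 over Oaz1 -0.37. On log2(TPM + 1), Nos2 over Arg2 was 5.05 and Arg2 over Odc1 -5.16, because the pseudocount of 1 exceeds the mean level of Arg2. The FASTQ tables gave 0.55 for Slc7a2 over Slc7a1 and 95.6% for the share of the 140-base exon; the cause was not tested. Their TPM differed from the alignment TPM by a median log2 of -0.48, -0.19 and -0.03 in replicates 1, 2 and 3 over 9749 expressed genes, and Gch1 was at 42.4 TPM there. Leaving out 1 of 3 replicates cannot move a mean by more than its SD, so the 24 mean levels recomputed this way are no check. The counts at 1 TPM were 6 members and 42 pathway genes; at 0.5 and 5 TPM they were 6 and 6 members and 44 and 36 pathway genes. No paired analysis was possible because the labels give a single group. Depth limits Arg1, Nos1, Nos3 and Gchfr, each at 3 counts or fewer in total by alignment.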
